A study of Scophthalmus maximus with 8 samples.

Results

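The net change over metamorphosis of the turbot (Scophthalmus maximus), a flatfish, was taken as the difference between post-metamorphic juveniles at 37 dph (days post hatching) and pre-metamorphic larvae at 15 dph. The samples were chosen by their stage label alone, 2 libraries of 37 dph and 2 of 15 dph, which is 4 of the 8 libraries of the series. The other 4 libraries came from the climax of metamorphosis at 23 dph and from whole animals at 3 dpf (days post fertilization), 2 each. At 37, 23 and 15 dph the fish were cut at the cloaca and the hind part was discarded, so the 2 stages compared share the line of the cut. The paper also set an upper limit on the tissue taken from each fish for RNA. Whether all of the front part was used at each stage is not stated. No treatment, strain or genotype is given for any group, and the libraries of a stage were described as independent biological replicates. RNA was measured by stranded, poly(A)-selected sequencing as raw read counts for 21263 genes.

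In fish, as in frogs, metamorphosis is driven by thyroid hormone, which enters cells and acts through nuclear receptors that bind DNA and turn target genes on or off. Larval isoforms of muscle and blood proteins are replaced by adult ones in this period, and in many flatfish the stomach with its acid glands is formed. The adult turbot lies on its blind right side. A body sampled whole mixes many tissues, and fewer cells of a type and less RNA per cell cannot be told apart in such a sample.

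Counts on genes were 19194598 and 24633023 at 37 dph, and 20837710 and 21365868 at 15 dph. The share of aligned entries that mapped to more than a single place was 7.0% and 6.61% at 37 dph, against 4.92% and 4.48% at 15 dph, and its part in the results was not tested. Between 19655 and 19800 genes had a count in a library. The tables name genes by Ensembl identifier. None of these identifiers matched the gene table at hand (0 of 21263), so genes are described by level and by change, the check of the sampled tissue against marker genes was not run, and no sequence is shown.

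Between 37 dph and 15 dph, 4133 of the 18987 genes tested differed by at least 2-fold, which is 21.8% of them. Of these, 2551 genes rose at 37 dph (13.4% of genes tested) and 1582 fell (8.33%), so 61.7% of the genes called were higher in the juvenile. A call needed a fold change of 2 or more and an adjusted p-value (Benjamini-Hochberg, over all genes tested) under 0.05 by the quasi-likelihood test of edgeR. Both libraries of 37 dph lay above both of 15 dph for 2544 of the 2551 risen genes, and below both for all 1582 fallen genes. Over all genes tested, groups that did not overlap were common, at 37.2% of genes with 37 dph above and 40.7% with 37 dph below. The median log2 fold change over all genes was -0.04.

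**Figure D1:**
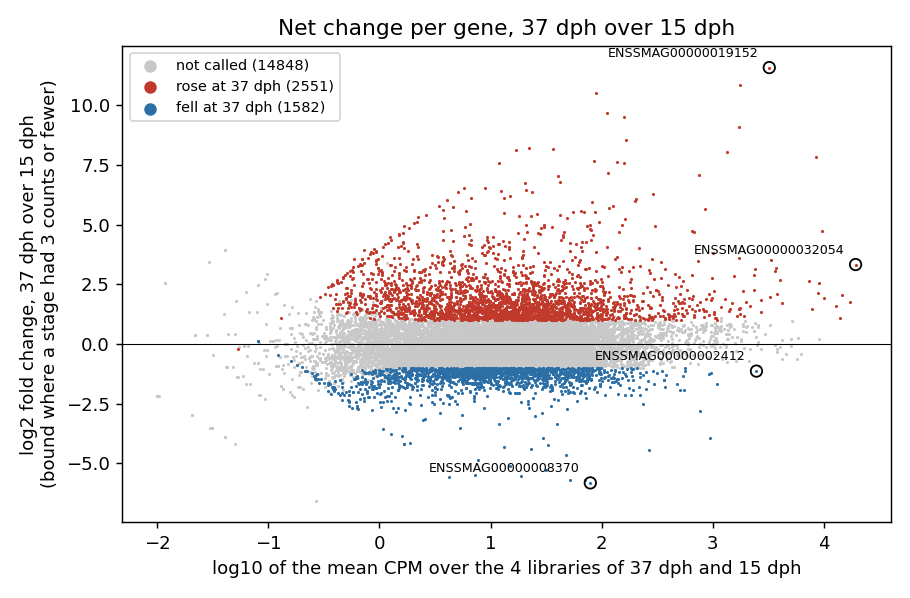
Each point is a tested gene, with the log10 of its mean CPM over the 4 libraries of 37 dph and 15 dph across and its log2 fold change, 37 dph over 15 dph, upwards. Called genes at 3 counts or fewer in both libraries of the lower stage are drawn at the lowest fold that 3 counts permit. Genes not called are drawn at the fitted fold, and genes at 0 in all 4 libraries are left out. The 2551 risen genes reach 11.59 on the log2 scale, the 1582 fallen genes stay closer to 0, and circles mark the genes named in the text.

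The direction of the balance depended on how the libraries were scaled. TMM normalization, used for all values here unless stated, sets the scale by the bulk of genes and gave the libraries of 37 dph factors of 0.732 and 0.873, against 1.16 and 1.17 for 15 dph. With library totals alone in the same edgeR fit, an alternative chosen after the data were seen, the median log2 fold change was -0.58, and 1323 genes rose and 5083 fell, which puts 20.7% of the calls higher in the juvenile. All 1323 genes that rose in that fit were among the 2551, and all 1582 fallen genes were again called lower. Changes below are therefore relative to the bulk of genes.

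Relative to the bulk of genes, the gains were larger than the losses. Risen genes had a median log2 fold change of 1.61 (quartiles 1.25 and 2.25), and fallen genes a median fall of 1.29 in log2 size (quartiles 1.12 and 1.56). Genes at 3 counts or fewer in both libraries of the lower stage were set to the lowest fold that 3 counts permit. So set, 1 risen and 6 fallen genes came to less than 2-fold, though their fitted change was 2-fold or more. At 4-fold or more there were 817 risen and 141 fallen genes, and at 8-fold or more 307 risen and 29 fallen. A change of 64-fold or more was reached by 33 risen genes and by 0 fallen genes. The median standard error of a log2 fold change was 0.27 for risen and 0.25 for fallen genes. By library totals alone the fitted changes of 4-fold or more numbered 472 rises and 519 falls. Those of 8-fold or more numbered 197 and 81, and those of 64-fold or more 28 and 9. Unlike the TMM numbers above, these were not held to a bound at low counts. The excess of gains held at 8-fold and at 64-fold, and not at 4-fold.

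**Figure D2:**
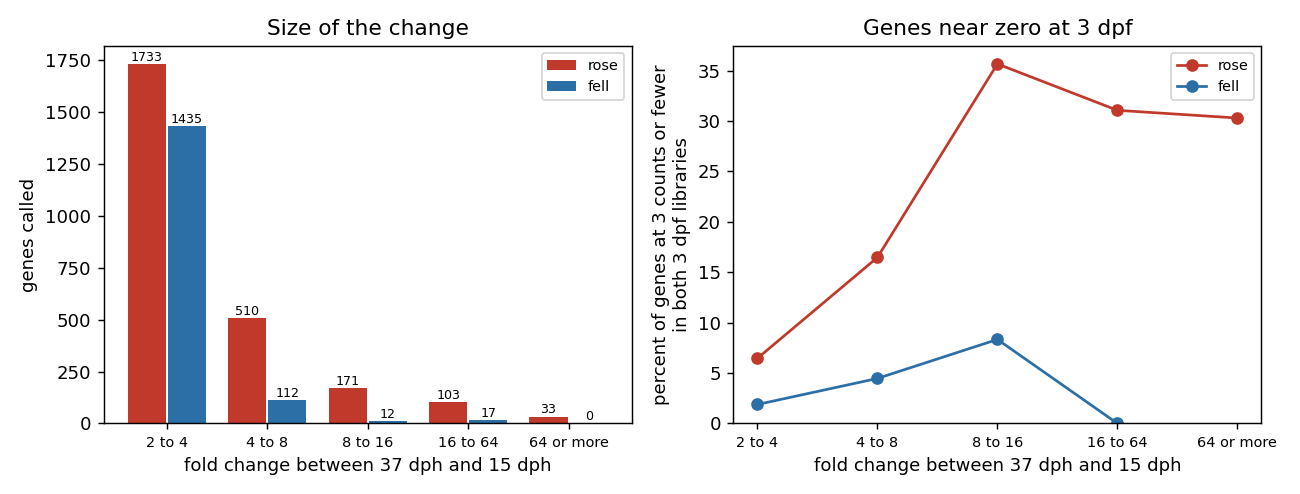
On the left, bars give the number of genes that rose or fell at 37 dph in each class of fold change between 37 dph and 15 dph; on the right, points give the percent of those genes that had 3 counts or fewer in both libraries of 3 dpf. The classes from 2 to 4-fold hold 1733 risen and 1435 fallen genes, while 16 to 64-fold holds 103 and 17. Levels differ between classes, with medians at 15 dph of 8.61 CPM for rises of 2 to 4-fold and 0.47 CPM for rises of 64-fold or more.

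With TMM, rises outnumbered falls in each class of expression level, and by the most among abundant genes. Levels are counts per 1000000 (CPM) on TMM-scaled library sizes, not divided by gene length. Of 150 genes that averaged 1000 CPM or more over the 4 libraries, 50 rose (33.3%) and 2 fell (1.33%). Of 1195 genes between 100 and 1000 CPM, 20.7% rose and 6.19% fell, and of 9813 genes between 10 and 100 CPM, 12.1% rose and 7.01% fell. Of 6521 genes between 1 and 10 CPM, 14.3% rose and 10.7% fell. Among 1308 genes under 1 CPM, 139 rose and 121 fell, and a further 239 differed by 2-fold or more without passing the test, against 1 such gene at 1000 CPM or more. By library totals alone, rises outnumbered falls only in the class of 1000 CPM or more, with 33 rises and 11 falls, and the 4 lower classes held more falls than rises.

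The risen genes took up a large part of the juvenile libraries. They held 46.3% and 39.4% of the gene counts at 37 dph, against 15.7% and 15.0% at 15 dph. The fallen genes held 1.78% and 2.39% at 37 dph, against 7.99% and 8.36% at 15 dph. These are shares of raw counts, and the stages did not overlap in either, but the genes summed were those called with TMM scaling on the same libraries. The shares were therefore also read in a juvenile left out of the choice, while the libraries of 15 dph remained part of it. The 2245 genes that rose without replicate 1 of 37 dph held 42.3% of the counts of that replicate, against 13.6% and 12.9% at 15 dph. The 2731 that rose without replicate 2 held 40.9% of its counts, against 17.4% and 16.7% at 15 dph.

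**Figure D3:**
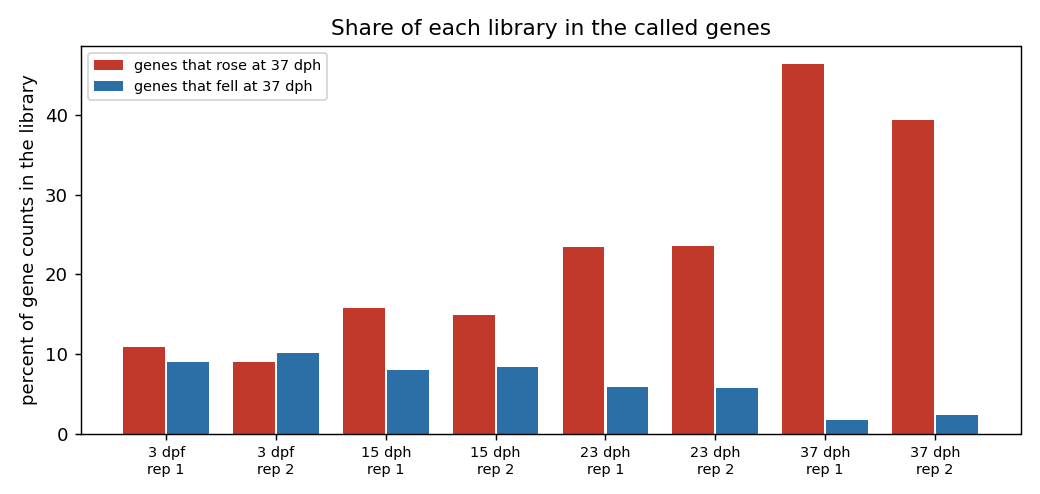
Bars give the percent of the gene counts of each library, in order of stage, held by the 2551 genes that rose and by the 1582 genes that fell at 37 dph. The share of the risen genes is 46.3% and 39.4% at 37 dph and 15.7% and 15.0% at 15 dph, with 23.4% and 23.5% at 23 dph.

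Few genes carried the gain in abundance. With TMM-scaled means, 34 genes made up the first 50% of all CPM gained at 37 dph, while 384 genes made up the first 50% of all CPM lost. On this scale the gains summed to 527418 CPM and the losses to 130631 CPM. The sums depend on the scaling, and the values of gain and loss were not recomputed with library totals alone. The 10 largest gains held 30.9% of the gain and all 10 were called, whereas the 10 largest losses held 12.2% of the loss and 4 of them were called. Over all genes tested 13.4% rose and 8.33% fell, and a ranking by difference on the same libraries favours such calls. The 20 most abundant genes of a library held 24.9% and 20.7% of its gene counts at 37 dph, against 12.7% and 12.8% at 15 dph. The first 50% of the gene counts lay in 165 and 228 genes at 37 dph, against 548 and 560 genes at 15 dph. The stages shared 9 of their 20 most abundant genes. Of the 20 at 37 dph, 17 rose and 0 fell, and of the 20 at 15 dph, 6 rose and 0 fell. The other 14 of the larval 20 were not called. Among the 150 genes that averaged 1000 CPM or more, 33.3% rose and 1.33% fell. A high rank at 37 dph, read in the same libraries, favours a rise, and a high rank at 15 dph favours a fall.

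The largest fold gain among genes with at least 10 CPM at the higher stage belonged to ENSSMAG00000019152. It had 8248 and 4700 CPM at 37 dph, against 2.45 and 1.76 CPM at 15 dph. Both juveniles thus lay far above both larvae, on counts of 115796 and 101028 at 37 dph and of 59 and 44 at 15 dph. The log2 fold change was 11.59 with a standard error of 0.54 (edgeR, adjusted p = 9.4e-07). At 23 dph the gene stood at 402 and 243 CPM, and at 3 dpf at 1.0 and 0.478 CPM.

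The largest gain in abundance was that of ENSSMAG00000032054, the most abundant gene of both juvenile libraries. It had 46751 and 23766 CPM at 37 dph, against 3820 and 3198 CPM at 15 dph. The replicates of 37 dph lay far apart from each other, and the stages did not overlap. The log2 fold change was 3.33 with a standard error of 0.47 (edgeR, adjusted p = 0.000411). In raw counts it took 3.42% and 2.07% of the gene counts at 37 dph, against 0.442% and 0.374% at 15 dph. It stood at 6858 and 7606 CPM at 23 dph.

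By the same limit of 10 CPM, now at 15 dph, the largest fold loss belonged to ENSSMAG00000008370. It had 1.99 and 3.35 CPM at 37 dph, against 141 and 170 CPM at 15 dph. These are 28 and 72 counts in the juveniles and 3408 and 4249 in the larvae, with no overlap. The log2 fold change was -5.82 with a standard error of 0.26 (edgeR, adjusted p = 8.76e-07). The gene stood at 69.4 and 54.8 CPM at 23 dph and at 70.4 and 68.0 CPM at 3 dpf, so its highest level in the series was that of the larva at 15 dph.

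The largest loss in abundance among the called genes was that of ENSSMAG00000002412. It had 1440 and 1662 CPM at 37 dph, against 3339 and 3486 CPM at 15 dph. The log2 fold change was -1.14 with a standard error of 0.20 (edgeR, adjusted p = 0.00167), close to the minimum of 2-fold. Its mean fell by 1862 CPM, while that of ENSSMAG00000032054 gained 31750 CPM.

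**Figure D4:**
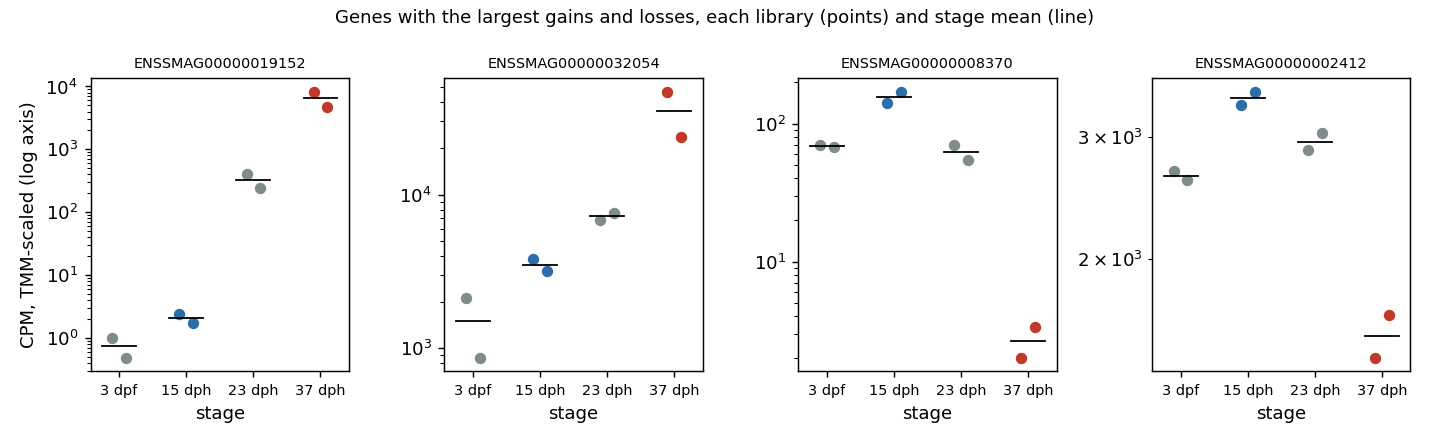
Points give the TMM-scaled CPM of the 4 named genes in each of the 8 libraries on log axes, in order of stage, and lines give the mean of each stage. ENSSMAG00000019152 and ENSSMAG00000032054 are highest at 37 dph, at 8248 and 4700 CPM and at 46751 and 23766 CPM, while ENSSMAG00000008370 and ENSSMAG00000002412 are lowest there, at 1.99 and 3.35 CPM and at 1440 and 1662 CPM.

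Behind these genes the gains and losses had different shapes. Among called genes with no overlap between the stages and at least 10 CPM at the higher stage, the 20 largest fold gains ranged down to a log2 fold change of 6.79, and 6 of the 20 had at least 1000 CPM at 37 dph. The second of them had 3529 CPM at 37 dph and 1.87 CPM at 15 dph, and the one with the highest level had 17060 CPM at 37 dph and 74.97 CPM at 15 dph. By the same limits, which leave out losses of genes with a low level at 15 dph, 928 fallen genes qualified, against 1724 risen genes. The 20 largest fold losses, a larger part of those that qualified, ranged down to a log2 size of 2.89. Of these 20, 1 had at least 1000 CPM at 15 dph. That gene had 115 CPM at 37 dph and 1784 CPM at 15 dph. Against 23 dph, all 20 of these gains were called higher at 37 dph and all 20 losses lower, where 7.67% and 4.36% of all genes tested were. The ranking used the same libraries of 37 dph, so such calls were likely from the start. Only 2 genes of the 20 largest fold gains were among the 20 largest gains in CPM, and the count was also 2 for the losses.

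Few of the genes called had next to no counts at the lower stage, and few such genes were tested. Among the risen genes, 46 had 3 counts or fewer in both libraries of 15 dph, and 4 of these had 0 in both. Their median level at 37 dph was 1.23 CPM, 5 of them reached 10 CPM, and the highest stood at 179 CPM. Of the fallen genes, 40 had 3 counts or fewer in both libraries of 37 dph and 6 had 0 in both. Their median level at 15 dph was 0.559 CPM, and the highest, at 8.46 CPM, did not reach 10 CPM. Over all genes tested, 117 had 3 counts or fewer in both libraries of 15 dph, and 39.3% of these rose, against 13.4% of all. At 37 dph 157 genes tested were as low, and 25.5% of these fell, against 8.33% of all. Genes so low at a stage entered the test only through other stages and had almost no room to change the other way. Both shares were thus favoured by the choice of genes. A count of 3 was worth 0.214 and 0.140 CPM at 37 dph and 0.124 and 0.120 CPM at 15 dph. The filter on low counts was passed through the 37 dph libraries alone by 64 genes, of which 63 rose, and through those of 15 dph alone by 43 genes, of which 5 fell.

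In the genes called, the climax at 23 dph mostly lay between the stages compared and nearer to the larva. On a scale of log2(CPM + 0.5), a median of 32.3% of the change between 15 and 37 dph was present at 23 dph in risen genes (quartiles 18.5% and 47.5%), and 28.6% in fallen genes (quartiles 12.6% and 48.2%). The mean at 23 dph lay between the means of the other 2 stages for 2331 of the 2551 risen genes and 1374 of the 1582 fallen genes. The genes were chosen for a wide gap between 15 and 37 dph, which favours a mean between them. The same share over all genes tested was not computed. It was nearer to 15 dph than to 37 dph for 77.5% of the risen and 76.5% of the fallen genes. By age, 23 dph is also nearer to 15 dph, and the values were not scaled by days. All these values rest on TMM scaling, which gave the libraries of 23 dph factors of 0.941 and 0.939. They were not recomputed with library totals alone, so how far they depend on the scaling is not known.

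Both steps were tested in the same edgeR fit, and each shares libraries with the net comparison, so their values are set side by side as a description. Between 23 and 15 dph, 252 of the 2551 risen genes were called higher, against 1.48% of all genes tested, and their median log2 fold change was 0.57. Between 37 and 23 dph, 1361 of them were called higher, against 7.67% of all genes, and the median was 1.09. Of the 1582 fallen genes, 32 were called lower between 23 and 15 dph, against 0.200% of all genes, with a median of -0.37. Between 37 and 23 dph, 651 of them were called lower, against 4.36% of all genes, with a median of -0.97. For 1 risen gene the step from 23 to 37 dph was called lower, and for 1 fallen gene the step from 15 to 23 dph was called higher.

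The largest gains showed a change at the climax more often than the small ones. Of the 33 genes that rose 64-fold or more, 21 were called higher at 23 dph than at 15 dph (63.6%), against 63 of the 1733 that rose 2 to 4-fold (3.64%). Over all genes tested the share was 1.48%. The share of the log2 change present at 23 dph varied less between these classes, at medians of 40.6% and 32.1%. A larger net change leaves a larger step to detect, and the difference between the classes was not tested. Of the 17 genes that fell 16 to 64-fold, 8 were called lower at 23 dph than at 15 dph, against 0.200% of all genes tested. Of the 20 called losses that were largest in CPM, 0 were called lower at 23 dph than at 15 dph. With so few such calls over all genes, 0 of 20 does not set these losses apart. For 9 of them the mean at 23 dph lay above that at 15 dph. The same 20 losses were called lower between 37 and 23 dph in 19 cases, against 4.36% of all genes tested. The libraries of 37 dph in that step also ranked them.

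**Figure D5:**
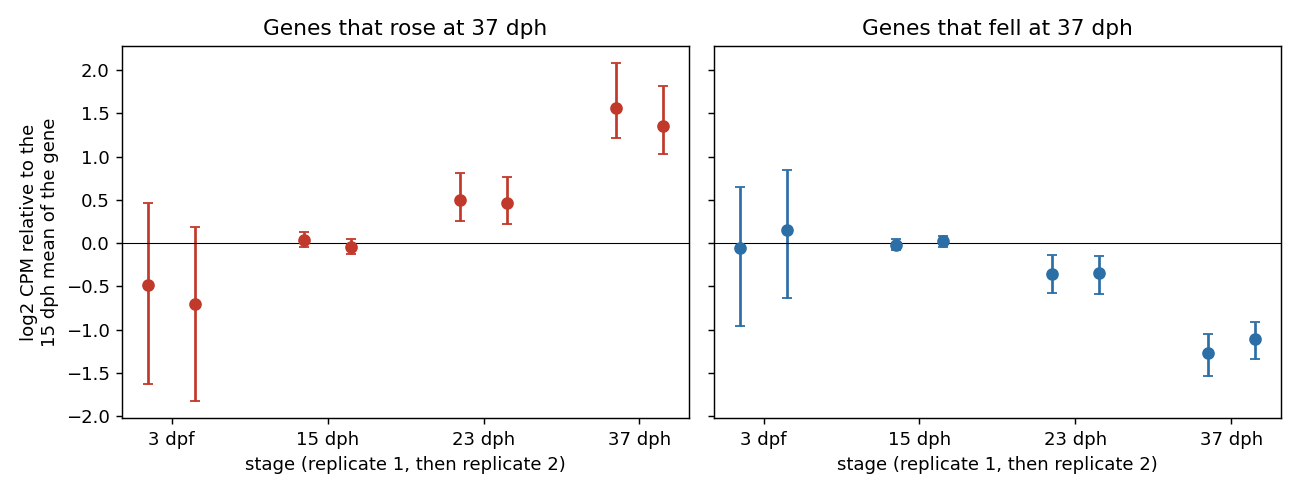
Points give the median, over the 2551 risen genes (left) or the 1582 fallen genes (right), of the log2(CPM + 0.5) in each library minus the mean of the gene at 15 dph, with bars from the first to the third quartile of genes; libraries are in order of stage, with replicate 1 before replicate 2. The medians of the risen genes are 0.50 and 0.47 at 23 dph and 1.56 and 1.36 at 37 dph, and those of the fallen genes are -0.36 and -0.34 at 23 dph and -1.27 and -1.11 at 37 dph.

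The libraries of 3 dpf were not part of the contrast, and risen and fallen genes differed in their level there. Risen genes had 3 counts or fewer in both libraries of 3 dpf in 299 of 2551 cases (11.7%), against 33 of the 1582 fallen genes (2.09%) and 287 of the 14854 genes not called (1.93%). The share was 6.46% among genes that rose 2 to 4-fold, 16.5% among those that rose 4 to 8-fold and 35.7% among those that rose 8 to 16-fold. It was 31.1% among the 103 genes that rose 16 to 64-fold and 30.3% among the 33 that rose 64-fold or more. Both libraries of 3 dpf lay below all 4 libraries of 37 and 15 dph for 59.1% of the risen genes, 12.3% of the fallen genes and 30.7% of the genes not called. They lay above all 4 for 4.55% of the risen genes, 41.4% of the fallen genes and 33.3% of the genes not called. Whole animals at 3 dpf and cut bodies later cannot be told apart from stage in these values, and a gene low at 3 dpf entered the test only through its later level.

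The juveniles differed from each other more than the larvae did. The median log2 difference between replicates over all genes tested was 0.24 in size at 37 dph and 0.12 at 15 dph, and 525 genes were at least 2-fold apart between the replicates of 37 dph, against 45 at 15 dph. Among the risen genes the median was 0.34 at 37 dph and 0.18 at 15 dph, and 185 were 2-fold apart at 37 dph, against 18 at 15 dph. For 2113 of the 2551 risen and 1283 of the 1582 fallen genes the difference between the stage means was more than 2 times the gap between replicates in either stage. The call itself, made on the same libraries, favours such a ratio, and the count was not made over all genes tested. Replicate 1 of 37 dph lay farther from the larvae than replicate 2 for 69.7% of the risen and 65.8% of the fallen genes, and for 61.2% of all genes tested. With library totals alone the shares of the risen and the fallen genes were 48.0% and 83.8%. Among risen genes the juveniles were thus close to even by that scaling, with median log2 ratios to the larvae of 0.955 and 0.977. Without replicate 2 of 37 dph 2731 genes rose and 2024 fell, and without replicate 1 of 37 dph 2245 rose and 1252 fell. In all 4 fits that each left out a library of 37 or 15 dph, 1705 of the risen and 842 of the fallen genes kept their call.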

How the data were processed

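Adapters were trimmed by the authors (Trimmomatic), the reads were aligned to ASM1334776v1 with STAR, and HTSeq gave the number of reads on each gene. The authors deposited these raw counts per library without normalization. The strand setting of the counting and the annotation release are not given in the sources used here. Reads that mapped to several places or fell on several genes have summary entries of their own. Genes that overlap or have near-identical copies may thus have lost reads. The 5 summary entries of each table name no gene and were left out. At 37 and 15 dph, entries with no feature made up 15.3% to 18.3% of aligned entries, and ambiguous ones 1.71% to 1.80%.

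Genes were filtered with filterByExpr, scaled by TMM and tested with edgeR 4.0.16 in R 4.3.3. All 8 libraries and 4 stage means entered the fit, with 4 residual degrees of freedom, so the spread is shared by the stages. The standard error is the log2 fold change divided by the square root of the F statistic. A count of 0 allows up to 3 counts, for counting error only. The same floor was used for observed counts of up to 3, where it holds for the counts seen and makes no allowance for counting error. The procedure was tried on simulated counts in which few genes changed and all stages had the same spread. Such counts cannot test the choice of scaling or a spread that differs by stage. With 2 fish a stage, p-values of this fit rest on the spread between replicate fish pooled over all 4 stages, 3 dpf and 23 dph included. They do not measure the spread at 37 dph or at 15 dph alone, and replicates lay farther apart at 37 dph than at 15 dph.

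Named genes were called, did not overlap between stages and had at least 10 CPM at the higher stage. In each direction the largest fold change and the largest difference in CPM were taken. Members, lists and tests were chosen with earlier results of these data known. The gene table used, of the assembly ASM2237912v1, holds 26628 genes and 0 Ensembl identifiers, and gene lists were not run for want of names. Alternatives covered normalization, filter, fold, test (DESeq2 1.42.0, limma 3.58.1), depth, libraries and the replicate number.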

Additional observations from a re-analysis of the deposited data

How the results depend on the processing

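All 60 recomputed fold changes of the 4 named genes kept their direction and their call. With each replicate left out in turn, the genes called ranged from 3303 to 4755, those that rose from 2095 to 2731 and those that fell from 1208 to 2024, and the spread of the lone library was taken from the other stages. Without replicate 1 of 37 dph, 1 gene was called in the opposite direction. With no minimum fold change 8210 genes were called, 4297 higher and 3913 lower, and at a fitted change of 4-fold or more there were 982, of which 820 were higher and 162 lower, both by construction. Library totals alone, added after the data were seen, gave 6406 calls, 1323 higher and 5083 lower. Over all genes the median log2 fold change was -0.043, and was -0.017 with RLE, -0.11 with upper-quartile scaling, -0.58 with library totals and -0.031 where all libraries had to reach 10 counts. By RLE, upper-quartile scaling, no filter, a filter of 10 counts in all libraries, DESeq2, limma voom with and without a weight for each stage, the 4 libraries alone and thinning, the calls stayed within 1.5 times 4133, and the share that was higher ranged from 55.0% to 64.9%. Genes with 0 counts in both libraries of the lower stage numbered 4 at 15 dph and 6 at 37 dph, in place of 46 and 40 at 3 counts or fewer. The 10 and 100 most abundant genes held 16.2% and 40.9% of counts at 37 dph and 7.88% and 27.9% at 15 dph. The share of the change present at 23 dph was 36.2% among genes that fell at least 4-fold, against 28.6%, and with each replicate of 23 dph left out it ranged from 27.8% to 28.7% for fallen and from 31.5% to 33.1% for risen genes. This share was computed with TMM scaling only.

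The replicate number as a block gave 4175 calls, 2537 higher and 1638 lower, and changed no call of a named gene. The replicates are different fish and share only a number. The deviations of replicate 1 from the stage mean at 37 dph and at 15 dph had a correlation of -0.02 across genes, which are not independent replicates. The median standard error was largest among genes under 1 CPM, at 0.53 on the log2 scale, against 0.19 between 10 and 100 CPM. The part of depth in this was not tested by level.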

Other observations

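Beyond the genes called, 4077 genes passed the adjusted p-value of edgeR's quasi-likelihood test between 37 and 15 dph with a change of less than 2-fold. Counted without a minimum fold change, 4297 genes were higher at 37 dph and 3913 were lower, closer to an even split than the 2551 and 1582 at 2-fold or more. TMM sets the bulk of genes near no change, so this split depends on the scaling. By library totals alone the median log2 fold change was -0.58, and the split without a minimum fold was not computed. Another 330 genes differed by 2-fold or more without passing the test, 134 higher and 196 lower at 37 dph.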
